A study of Mus musculus with 23 samples.

Results

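The mononuclear phagocyte genes described here are 39 genes that mark macrophages, monocytes and dendritic cells. They were taken from a list of symbols and matched to array probes through the RefSeq accession that the scanner file gives for each probe. Of the 39 genes, 37 matched a probe, out of 18217 genes with a probe in all, and Cd68 and Clec9a were not analysed here. All 37 were among the 13743 genes tested. Each was well above background, by the scanner software's own call (also written as detected below), in all 13 spleens, so none entered the test through 1 group alone.

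RNA of 22 mouse samples was measured on 23 Agilent one-colour arrays. The 9 B cell lymphoma lines (10 arrays, line 8 being measured on 2) were grown in suspension from tumour-bearing spleens of ATMKO.CD3eKO mice, which lack the DNA damage kinase ATM. The study's design text counts 10 lines, but 2 of the 10 arrays carry the same number in their titles, 1 of them marked as a repeat, and were taken as 1 line. The KO group held 6 spleens of ATMKO.CD3eKO mice without a tumour, all female, and the WT group held 7 spleens of ATMWT.CD3eKO mice, 3 female and 4 male. All 3 groups carried the deletion of CD3e, one of the signalling chains of the T cell receptor, on a C57BL/6 x 129 background. The labels attach the culture protocol to the spleens as well, whose tissue they give as normal spleen. Ages, the sex of the lines and the number of cells that founded each line are not given in the sources used here, and p-values measure the spread between these samples. The B cell markers Ms4a1 and Cd79b were well above background in all 9 lines, as the label of the lines requires, and the summed level of 10 B cell markers overlapped between groups (298 to 542 in the lines, 329 to 484 in KO spleens and 339 to 500.3 in WT spleens, as multiples of the array's 75th percentile).

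Mononuclear phagocytes of the spleen form several populations. Red pulp macrophages take up old red blood cells and recycle their iron, and they depend on the transcription factor SPI-C. Macrophages of the marginal zone sit where arterial blood enters and bind particles through scavenger receptors, and macrophages of both zones clear dying cells. Monocytes circulate and are held in reserve in the spleen, while dendritic cells present antigen and fall into a cross-presenting type that needs BATF3 and other types. B cells share some of the machinery, such as the cathepsin and oxidase genes used in antigen handling, so a gene of the list need not be restricted to phagocytes.

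Levels below are log2 values from which the array's own 75th percentile was subtracted, so that 0 equals that percentile and a difference of 1 is a doubling. That percentile lay at an intensity of 490.8 to 787.5 for the lines, 667.9 to 896.3 for KO spleens and 569.6 to 831.8 for WT spleens. Lines 4 and 5, which lay on the same slide, had a Pearson correlation of 0.985 over the tested genes. That is above the 0.969 between the 2 arrays of line 8 and above every other pair of lines (0.945 to 0.977), and results for the lines are therefore also given with lines 4 and 5 averaged into 1 value. The members were called lower in the same numbers with that average, 36 against KO spleens and 36 against WT spleens.

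**Figure D1:**
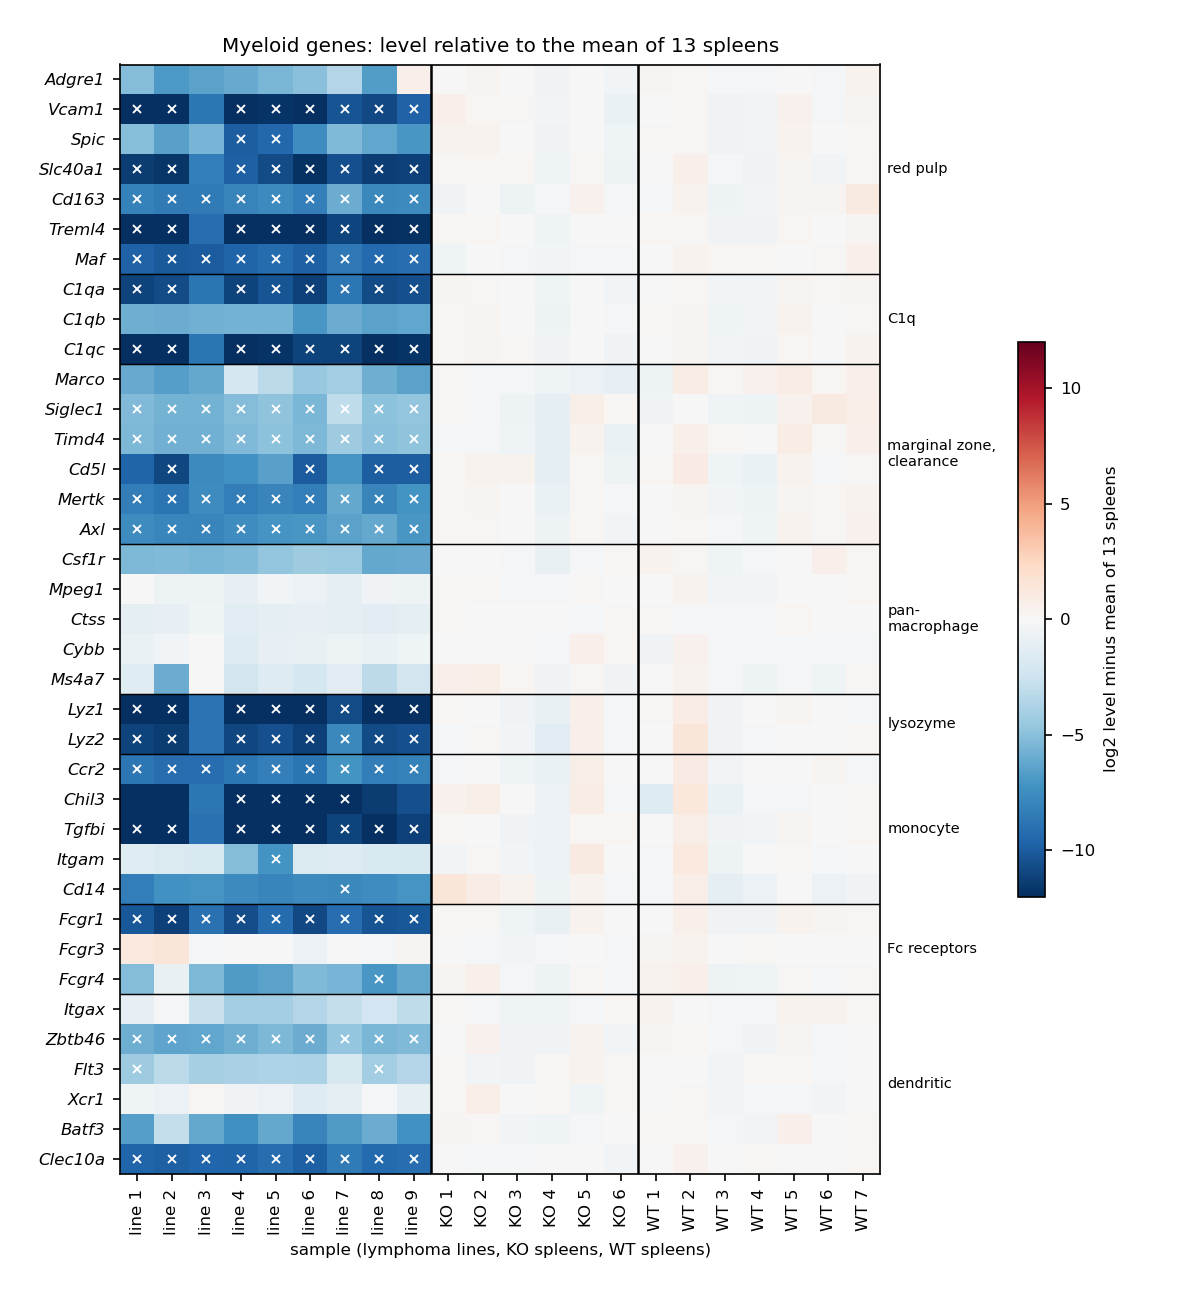
Each row is 1 of the 37 measured genes and each column a sample, with lymphoma lines at the left, KO spleens in the middle and WT spleens at the right. Colour gives the log2 level minus that gene's mean over the 13 spleens, and a white cross marks a sample not well above background. The lines are blue for most genes, with pale rows for Mpeg1, Ctss, Cybb, Fcgr3 and Xcr1, and line 3 has 27 of 37 genes well above background against 16 to 18 in the other lines.

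Between spleens of the 2 genotypes the phagocyte genes differed by less than the test could call, with Maf, Marco and Timd4 nearest to the threshold and lower in KO spleens. None of the 37 passed limma's test at an adjusted p of 0.05 in either direction, beside 2.16% of all tested genes called lower and 1.66% called higher in KO spleens. In simulated data, with the spread pooled over lines and spleens, this fit recovered 0% of changes of 0.5 and 44.5% of changes of 1. The genotype fit itself uses spleens alone, whose spread can differ from that of the lines. The standard deviation of Adgre1 was 2.35 in lines, 0.28 in KO and 0.27 in WT spleens, that of Cd14 0.41, 0.73 and 0.65. Recovery at the spleens' own spread was not determined. At an unadjusted p of 0.05, 6 members were lower in KO spleens and 0 higher, against 12.5% of all tested genes lower and 7.88% higher. The 6 were Maf, Marco, Timd4, Siglec1, Cd163 and Itgax. In size alone 32 of the 37 estimates lay below 0 (58.5% of all tested genes did), with a median of -0.23 against -0.05 over all tested genes. These signs depended on the background correction. With normexp the estimates of Adgre1, Vcam1, Spic, Slc40a1, Treml4, Cd5l, Mpeg1, Ctss, Lyz1, Fcgr3 and Fcgr4 turned positive (0.006 to 0.199). That of Xcr1 turned negative (-0.587). No member separated the 2 genotypes without overlap, while 2.09% of all tested genes did so in the lower and 2.27% in the higher direction. In whole spleen, fewer cells of a type and less RNA per cell cannot be told apart.

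Because every KO spleen was female, the fitted difference with a term for sex sets the 6 KO spleens against the 3 female WT spleens. The sex term itself passed for 0 of the 37 members (lowest adjusted p = 0.226, limma), against 0.691% of all tested genes.

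Among the red pulp genes, Maf, a transcription factor of tissue macrophages, came nearest to the threshold. Its level was 0.65, 1.14, 0.99, 0.90, 1.02 and 0.98 in KO spleens 1 to 6, against 1.14 to 1.80 in WT spleens (median 1.38). The highest KO spleen and the lowest WT spleen met at the edge of their ranges, and all 6 KO spleens lay below all 3 female WT spleens. The difference was -0.54 ± 0.14 (SE, adjusted p = 0.0556, limma), and Maf was lower in KO spleens on all 5 slides that held both genotypes (-0.71 to -0.31). So were Marco, Csf1r and Fcgr3, making 4 of the 37 members. The share of all tested genes lower on all 5 slides was not determined, so this count cannot be set against it. These slide differences use WT spleens of either sex, without a sex term. Maf passed with median centring (adjusted p = 0.0468), with slide as a term (-0.64, adjusted p = 0.0308) and with no sex term (-0.47, adjusted p = 0.017). A second Maf probe differed by -0.61 against the female WT spleens, and its KO range overlapped that of all WT spleens.

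The haemoglobin scavenger receptor Cd163 had the largest estimate of the red pulp genes, at -0.71 ± 0.27 (adjusted p = 0.162). It lay between -1.06 and 0.02 in KO spleens and between -1.02 and 0.61 in WT spleens, so the ranges overlapped almost fully. The other 5 red pulp genes differed by -0.25 to -0.10. They are Adgre1 (F4/80), Vcam1 (which holds leukocytes in the red pulp), Spic (the SPI-C factor), Slc40a1 (the iron exporter ferroportin) and Treml4 (a receptor on splenic macrophages).

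The marginal zone and clearance genes had the lowest median of the subsets, -0.65. Marco, a scavenger receptor of marginal zone macrophages, was 1.85, 1.49, 1.44, 1.22, 0.98 and 0.69 in KO spleens 1 to 6, and 1.12 to 2.64 in WT spleens (median 2.21). WT spleen 1 fell inside the KO range while the other 6 WT spleens lay above it. The difference was -1.004 ± 0.31 (adjusted p = 0.101), and only the fit with no sex term called it (-0.82, adjusted p = 0.0499). Timd4, a receptor for phosphatidylserine on dying cells, differed by -0.94 ± 0.28 (adjusted p = 0.0926), with -4.23 to -2.77 in KO spleens and -3.22 to -2.26 in WT spleens. Without KO spleen 5, the highest of its group, Timd4 passed (-1.11, adjusted p = 0.0295). Siglec1, the sialic acid receptor of metallophilic macrophages, differed by -0.92 ± 0.33 (adjusted p = 0.149). Its second probe, detected in 5 of 6 KO and 5 of 7 WT spleens, differed by -0.66 when set against the female WT spleens in the same way.

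In these 3 genes the female WT spleens were the highest group by mean. The same held for other members, among them Cd163 (-0.61 in KO, 0.10 in female WT and -0.63 in male WT spleens) and Itgax (2.95, 3.46 and 3.11). In Fcgr3 and Clec10a the male WT spleens were highest. The mean levels of Siglec1 were -3.52 in KO spleens, -2.61 in female WT spleens and -3.77 in male WT spleens, so the KO spleens lay between the sexes of the WT group. Timd4 averaged -3.58 in KO spleens, -2.63 in female WT spleens and -2.99 in male WT spleens. Marco averaged 1.28 in KO spleens, 2.28 in female WT spleens and 1.96 in male WT spleens. The remaining clearance genes Cd5l (a secreted scavenger protein), Mertk and Axl (receptors for bridging proteins on dying cells) differed by -0.19, -0.34 and -0.39.

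The complement genes C1qa, C1qb and C1qc, which encode the chains of C1q and are made by macrophages, differed by -0.34 to -0.24, each with overlapping groups. Whether the probes separate the near-identical transcripts of the lysozyme genes Lyz1 and Lyz2 was not tested. Lyz2 was 0.97 to 3.03 in KO spleens (median 2.18) and 1.98 to 3.86 in WT spleens (median 2.41), with a difference of -0.33 ± 0.43 (adjusted p = 0.702), and Lyz1 differed by -0.16.

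The monocyte genes had a median of -0.04, and Cd14, the co-receptor for bacterial lipopolysaccharide, had the largest positive estimate of all members. Its level was 3.94, 3.43, 2.98, 1.91, 2.94 and 2.35 in KO spleens 1 to 6, against 1.34 to 3.37 in WT spleens (median 2.11). The difference of 0.76 ± 0.46 did not pass (adjusted p = 0.377). Ccr2, the receptor that lets monocytes leave bone marrow, differed by -0.21, Tgfbi, a matrix protein, by -0.28, the integrin Itgam by -0.04 and the chitinase-like gene Chil3 by 0.19. The pan-macrophage genes lay between -0.47 (Csf1r, the receptor for macrophage growth factor, adjusted p = 0.282) and 0.29 (Ms4a7). The Fc receptor genes, which bind antibody, differed by -0.42 (Fcgr1, adjusted p = 0.419), -0.16 (Fcgr3) and -0.06 (Fcgr4).

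Among dendritic cell genes, Itgax, which encodes CD11c, was 3.24, 2.88, 2.60, 2.61, 3.02 and 3.36 in KO spleens 1 to 6 and 2.89 to 3.54 in WT spleens (median 3.34), a difference of -0.51 ± 0.19 (adjusted p = 0.152). The factors Zbtb46 and Batf3 differed by -0.10 and -0.37. The growth factor receptor Flt3 differed by -0.01, the chemokine receptor Xcr1 by 0.26 and the lectin Clec10a by -0.19. Of these 6 genes 5 had an estimate below 0 and 1 above, with a median of -0.14.

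**Figure D2:**
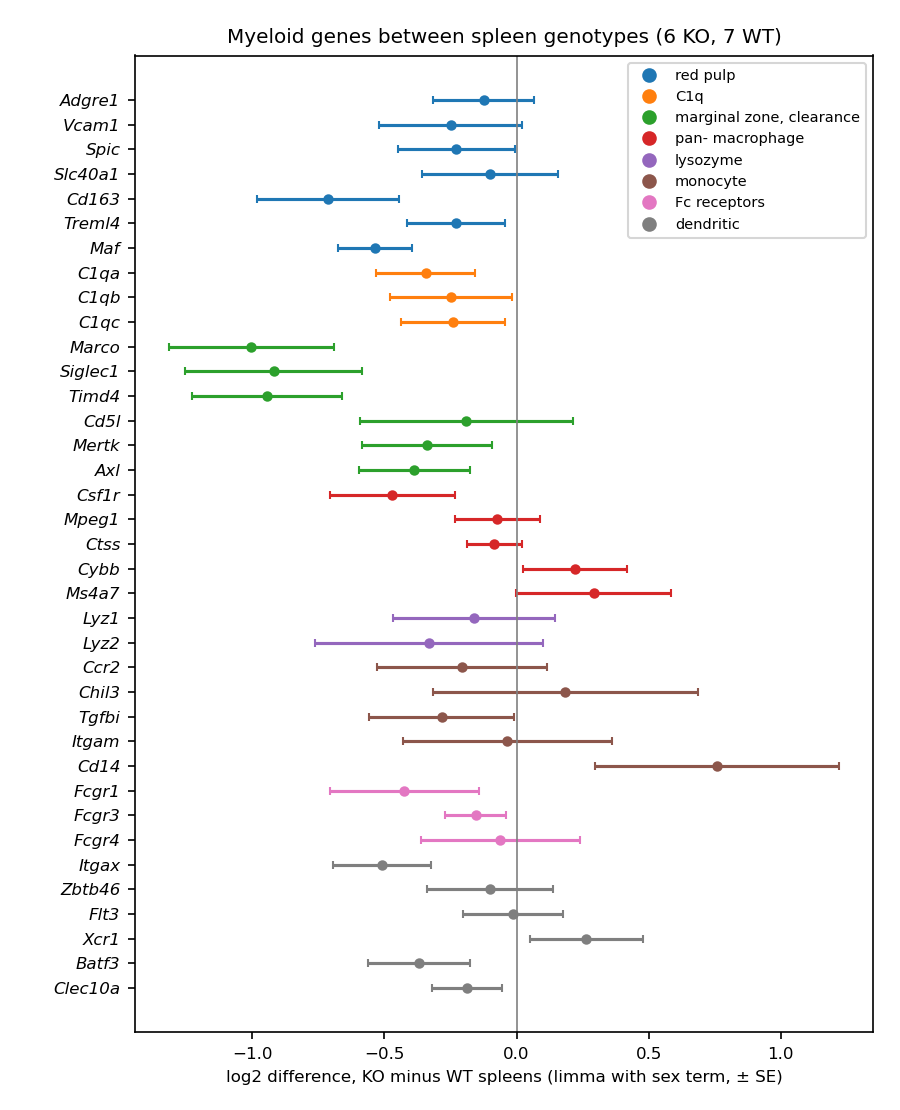
Points give the log2 difference, KO minus WT spleens, from limma with a sex term for each of the 37 genes, bars give ± SE, and colours mark the subsets. The estimates lie between -1.004 (Marco) and 0.76 (Cd14), 32 of 37 are below 0, and none passed the threshold.

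Some spleens were low or high for many members. KO spleen 4 was the lowest KO spleen for 24 of 37 members and lay 0.49 below the group mean at the median member. WT spleens 3 and 4 were lowest for 17 and 13 members, and WT spleen 2 was highest for 18. The summed level of 11 neutrophil markers was 241 in KO spleen 4, the lowest of 241 to 784 in KO spleens, and 996 in WT spleen 2, the highest of 208 to 996 in WT spleens. Of 9 erythroid markers the sums were 131 to 723 in KO spleens and 180 to 605 in WT spleens. The part of these cell mixtures in the member levels was not tested. None of the neutrophil, erythroid, T cell, B cell or megakaryocyte markers passed between genotypes, while 4 of 8 NK cell markers (Klrb1c, Gzma, Klrk1 and Klra8) were lower in KO spleens. Of 11 stromal and endothelial markers 1 was called higher and 1 lower. The median difference was 0.90 for the neutrophil and 1.01 for the erythroid markers, although no marker of either list passed.

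Around the members, 104 genes of the same pathways were tested, drawn from lists of growth factors, transcription factors, iron handling, clearance, complement, Fc signalling, oxidase and lysosome, monocyte and dendritic cell genes. Between genotypes 1 was called higher and 3 lower, beside 1.66% of all tested genes called higher and 2.16% called lower. Klf4, a transcription factor of monocytes that other cells also use, was 6.12 to 6.64 in KO spleens and 5.45 to 5.82 in WT spleens, without overlap (0.88, adjusted p = 0.004). Called lower were the clearance receptor Stab1 (-1.14, adjusted p = 0.013), the complement gene C2 (-0.90, adjusted p = 0.028) and Esam (-0.74, adjusted p = 0.035), an adhesion molecule of a dendritic cell subset and of endothelium. In all 3 of these the KO and WT ranges overlapped. As for Siglec1, the KO mean of Stab1 lay between the sexes of the WT group, at -3.48 in KO spleens, -2.34 in female WT spleens and -4.11 in male WT spleens, and against all 7 WT spleens the means differed by only -0.12. For C2 and Esam the means against all 7 WT spleens differed by -0.47 and -0.38. The median of each of these 9 lists lay between -0.33 and 0.08.

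In the lymphoma lines the phagocyte genes were low, but not to one degree. Of the 37 members 36 were called lower than in KO spleens, beside 28.9% of all tested genes, and 36 lower than in WT spleens, beside 30.9%. None was called higher (41.5% and 40.4% of all tested genes were). For 30 members every line lay below every KO spleen, and for 30 below every WT spleen (16.8% and 17.9% of all tested genes). The members' median difference was -6.93 against KO spleens and -6.95 against WT spleens, while the median over all tested genes was 0.18 and 0.14. Both comparisons use the same 9 lines. On the 5 slides that held lines and spleens, 32 members were lower on every slide against KO spleens and 33 against WT spleens. The share of all tested genes that were so was not determined.

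By subset, the median difference from KO spleens was -11.49 for the lysozymes, -10.30 for C1q, -9.22 for red pulp genes, -8.32 for monocyte genes, -5.96 for marginal zone and clearance genes, -5.40 for Fc receptors, -4.63 for dendritic cell genes and -1.07 for pan-macrophage genes. A difference of a gene that is not well above background in a line depends on where background lies, so these medians order the subsets only roughly.

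Detection in the lines separated the members more plainly. Of the 37 genes, 12 were well above background in all 9 lines, 7 in 5 to 8 lines, 8 in 1 line and 10 in none. Among the 12285 genes well above background in all 13 spleens, 83.1% were so in all 9 lines, 1.97% in 1 line and 4% in none. For genes not well above background in most lines the fold below is a lower bound, in which each line counts at the higher of its own level and the lowest level well above background on its array.

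The 10 genes detected in no line came from all subsets except the pan-macrophage, lysozyme and C1q genes. Maf was at least 139-fold lower in the lines than in KO spleens. Its adjusted p of 3.06e-20 (limma) belongs to the measured difference of -9.22, not to this bound. Cd163 was at least 47.2-fold lower, Mertk at least 68.5-fold and Axl at least 32.03-fold. Ccr2 was at least 77.5-fold lower, Fcgr1, the high-affinity receptor for IgG, at least 324-fold and Clec10a at least 149-fold. For Zbtb46, a factor of conventional dendritic cells, the bound was 11.6-fold. Siglec1 and Timd4 had bounds of 6.27-fold and 6.05-fold, and their levels in KO spleens were low (medians -3.41 and -3.55). Under normexp background correction neither passed against KO spleens (adjusted p = 0.142 for Siglec1 and 0.163 for Timd4), and the second Siglec1 probe was detected in 3 of 9 lines.

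The 8 genes detected in 1 line were all detected in line 3. They were the red pulp genes Vcam1, Slc40a1 and Treml4, C1qa and C1qc, both lysozymes and Tgfbi. C1qa and Lyz2 had higher levels in line 7 (-5.96 and -5.40) than in line 3 (-6.04 and -6.48), but were not well above background on the array of line 7. Lyz1 had the largest bound of the 18 members detected in 1 or no line. It was -3.40 in line 3 and not well above background in the other 8 lines, against 4.59 to 6.05 in KO spleens (median 5.37) and 5.04 to 6.34 in WT spleens (median 5.51). That gives at least 2261-fold lower levels in the lines than in KO spleens. The adjusted p of 9.39e-14 (limma) belongs to the measured difference of -12.86, not to this bound. The bounds of the others were 1179-fold for Tgfbi, 962-fold for Vcam1, 922-fold for Treml4, 838-fold for C1qc, 573-fold for Slc40a1, 442-fold for C1qa and 315-fold for Lyz2. Among all genes detected in the 13 spleens, 0.497% were detected in line 3 and in no other line.

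In line 3 these 8 genes, a set chosen by detection in that line alone, lay at similar distances below the spleens. The log2 level minus the mean of the 13 spleens was -9.12 to -8.34, that is 324-fold to 556-fold lower. Chil3, detected in 5 lines, was 403-fold below the spleens in line 3. Members detected in more lines could lie nearer to the spleens. Spic, detected in 7 lines, was -2.05 in line 3, against 3.03 to 3.96 in KO and 3.10 to 3.97 in WT spleens. The 9 markers of other cells examined in line 3 lay 164-fold to 713-fold below the spleens, a wider span that includes the distances of the members. S100a8 (neutrophils) was 518-fold, Alas2 (erythroid cells) 335-fold, Gzma (NK cells) 410-fold and Fcer2a (resting B cells) 419-fold below the spleens, while S100a9 was 233-fold and Hba-a1 164-fold below. The neutrophil genes Ltf, Ngp and Camp were 584-fold, 694-fold and 713-fold below, farther than any of the 8 members. The summed level of 11 neutrophil markers was 1.49 in line 3 and 0.0519 to 0.337 in the other lines, and that of 9 erythroid markers 2.95 in line 3 and 0.309 to 0.698 in the others. The sum of 8 NK cell markers in line 3 was 0.177, with 0.0865 to 2.55 in the other lines. This sum cannot show low levels of single NK markers, because it includes Klrb1c, detected in all 9 lines at -3.97 to 1.32. Gzma was -4.36 in line 3 and -8.80 to -7.21 in the other lines, while Klrk1, Eomes, Klra8 and Gzmb were detected in no line. Elane, Mmp8, Mmp9, Retnlg and Epb42 were well above background in none of the 9 lines. The part of other cells or other RNA in the values of line 3 was not tested. Without line 3 the number of members called lower was 36 against KO spleens and 36 against WT spleens.

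**Figure D3:**
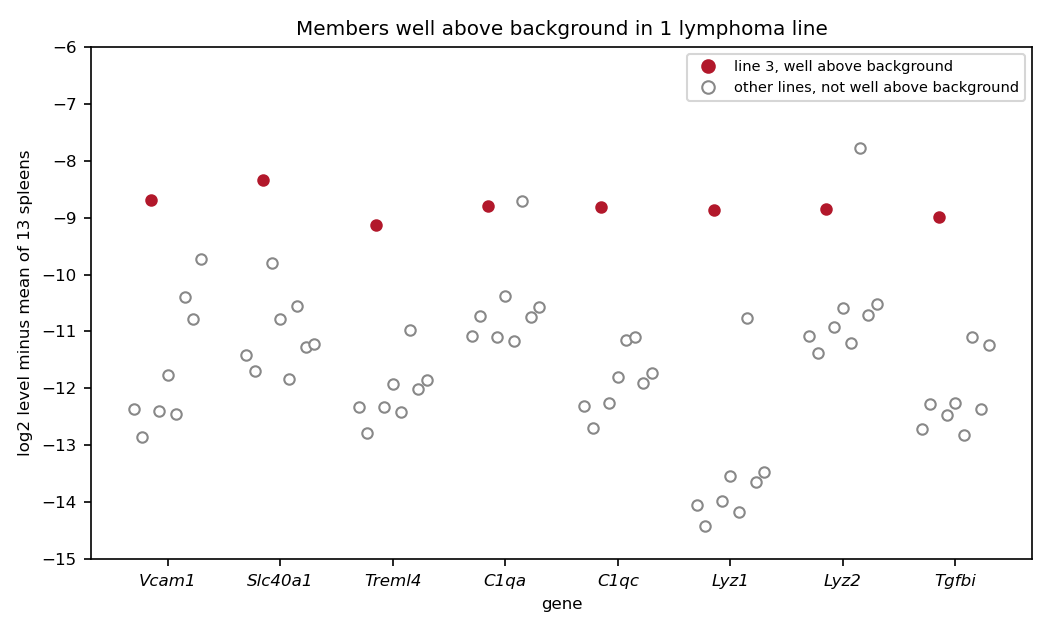
Each point is a lymphoma line, shown as its log2 level minus the mean of the 13 spleens, for the 8 genes well above background in 1 line. Within a gene, lines run from 1 at the left to 9 at the right; filled red points are line 3 and open grey points are the other lines, none of which was well above background for these genes. The red points lie between -9.12 and -8.34 for all 8 genes.

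Mpeg1, Cybb and Ctss were among the members whose difference from KO spleens was about 1 log2 unit or less, together with Fcgr3 and Xcr1. Ctss, which encodes the cathepsin that trims the invariant chain, was 5.89 to 6.66 in the lines (median 6.12), 7.001 to 7.36 in KO spleens (median 7.20) and 7.04 to 7.39 in WT spleens (median 7.18). All 9 lines lay below all 13 spleens, at -1.07 ± 0.10 against KO spleens (adjusted p = 7.29e-09), a 2.10-fold lower level. Mpeg1, a pore-forming protein of phagocytes that B cells also make, was 4.56 to 5.56 in the lines (median 5.04), 5.38 to 5.81 in KO spleens (median 5.68) and 5.29 to 6.02 in WT spleens (median 5.73). Lines 1 and 5 reached into the WT range and line 1 into the KO range, at -0.59 ± 0.14 against KO spleens (adjusted p = 0.000869). Cybb, the catalytic subunit of the phagocyte oxidase, was 0.77 to 2.40 in the lines (median 1.51), 2.15 to 2.95 in KO spleens (median 2.31) and 1.93 to 2.81 in WT spleens (median 2.19), with -0.82 ± 0.19 against KO spleens (adjusted p = 0.000589). Calls of Mpeg1 and Cybb changed with the scaling. With median centring, under which the median of all genes is 0.83 against KO spleens, Mpeg1 turned to 0.07 and Cybb to -0.16 against KO spleens, and neither passed, while Ctss was still called lower.

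Fcgr3, a low-affinity activating receptor for IgG, was the 1 member not called lower. Its level was 3.18, 3.53, 1.88, 2.12, 2.02, 1.38, 2.14, 1.92 and 2.42 in lines 1 to 9, 1.70 to 2.06 in KO spleens (median 1.90) and 1.99 to 2.50 in WT spleens (median 2.11). Lines 1 and 2 lay above all spleens and line 6 below all of them. The difference was 0.38 ± 0.23 against KO spleens (adjusted p = 0.151) and 0.11 ± 0.22 against WT spleens (adjusted p = 0.677). It was called higher with median centring (1.03 against KO and 0.75 against WT spleens) and, against KO spleens, without line 6 (0.49, adjusted p = 0.0469). Against WT spleens its sign turned with quantile normalisation (-0.14) and without line 1 (-0.003) or line 2 (-0.05). Fcgr2b, the inhibitory receptor of B cells and a close relative of Fcgr3 in sequence, was 3.82 to 5.82 in the lines and 3.63 to 3.96 in KO spleens (0.74 ± 0.22, adjusted p = 0.006). Whether its transcripts add to the Fcgr3 probe was not tested.

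For Csf1r the number of lines with detection depended on the probe, as it did for Adgre1 and Xcr1 below. The Csf1r probe used here was well above background in all 9 lines, at -4.35 to -2.46, against 0.89 to 1.97 in KO spleens and 1.29 to 2.38 in WT spleens (-5.08 ± 0.26 against KO spleens, adjusted p = 1.42e-13). Another Csf1r probe was detected in 3 of 9 lines and differed by -10.19, and a further one was detected in 0 lines and differed by -4.31. The probe standing for a gene is the one with the highest mean over the 22 samples, a rule that favours probes with signal in the lines. Itgam was -2.84 to -2.37 in 7 lines, -6.09 in line 4 and -8.07 in line 5, against -1.59 to 0.21 in KO spleens and -1.51 to 0.28 in WT spleens (-2.69 ± 0.70 against KO spleens, adjusted p = 0.0017). A second Itgam probe was detected in 7 lines and differed by -2.33.

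C1qb differed from its partners in the C1q complex. It was well above background in all 9 lines, at -4.83 to -3.53 (median -3.77), against 1.56 to 2.49 in KO spleens and 1.69 to 2.62 in WT spleens, while C1qa and C1qc were detected in line 3 alone. Ms4a7, a membrane protein of macrophages, was -5.74 in line 2 and -2.91 to 0.20 in the other 8 lines, against -0.19 to 1.02 in KO spleens and -0.42 to 0.62 in WT spleens (-2.37 ± 0.56 against KO spleens, adjusted p = 0.000689). Line 3 lay inside both spleen ranges and the other lines below them.

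Single lines held high levels of single members. Adgre1, the F4/80 antigen, was -1.75, -3.48, -2.98, -2.59, -2.004, -1.54, -0.09, -3.28 and 4.10 in lines 1 to 9, against 3.04 to 3.75 in KO spleens and 3.23 to 3.87 in WT spleens. Line 9 lay above all 13 spleens and every other line below them, at -4.91 ± 0.77 against KO spleens (adjusted p = 7.45e-06). Without line 9 the count of members called lower was again 36 in both comparisons. A second Adgre1 probe was also highest in line 9, at -1.60 against a KO range of -3.48 to -2.95, but it was detected in only 2 of 9 lines, so the detection of Adgre1 in all lines rests on the probe used here. Between the 2 arrays of line 8 Adgre1 differed by 3.19, the most of the 16 members well above background on both, for which the median absolute difference was 0.51.

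Line 2 held the most Fcgr4, Batf3 and Itgax. Fcgr4, an activating receptor for IgG2, was 1.32 in line 2 and -4.85 to -3.06 in the other lines, against 1.53 to 2.73 in KO spleens and 1.57 to 2.77 in WT spleens (-5.40 ± 0.62 against KO spleens, adjusted p = 9.81e-08). Batf3 was -0.89 in line 2 and -5.93 to -3.96 in the others, against 1.41 to 2.26 in KO spleens and 1.65 to 2.55 in WT spleens (-6.22 ± 0.49, adjusted p = 2.43e-10). Itgax was 2.12 and 3.00 in lines 1 and 2, -1.02 to 0.80 in the other 7, 2.60 to 3.36 in KO spleens and 2.89 to 3.54 in WT spleens (-2.47 ± 0.45, adjusted p = 5.11e-05). Only line 2 reached the spleen ranges of Itgax.

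Lines 4 and 5, the alike pair, were highest for Marco, at -0.34 and -1.48, with -4.92 to -2.50 in the other 7 lines, 0.69 to 1.85 in KO spleens and 1.12 to 2.64 in WT spleens (-4.57 ± 0.55, adjusted p = 1.96e-07). They were also the 2 lines in which Spic was not well above background, at -6.38 and -5.84, whereas the other 7 lines lay at -3.87 to -1.59, KO spleens at 3.03 to 3.96 and WT spleens at 3.10 to 3.97 (-6.93 ± 0.57, adjusted p = 5.78e-10). Cd5l was -7.24 to -2.87 in the lines, highest in line 5, and well above background in 5 lines, with 2.61 to 4.05 in KO spleens (-8.67 ± 0.57, adjusted p = 1.32e-11). Chil3 was -7.03 to -2.34 in the lines and highest in line 3, against 5.57 to 7.21 in KO spleens (-12.10 ± 0.57, adjusted p = 3.90e-14). Cd14 and Flt3 were detected in 8 and 7 lines, at -5.79 to -4.54 and -6.32 to -3.94, and the least negative Flt3 level was that of line 7.

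Xcr1, a chemokine receptor of cross-presenting dendritic cells, also differed between its probes. The probe used here was -5.03 to -3.27 in the lines, -3.96 to -2.71 in KO spleens and -3.80 to -3.28 in WT spleens (-0.84 ± 0.21 against KO spleens, adjusted p = 0.00155), with overlapping groups. The call was lost with median centring, quantile normalisation and normexp (adjusted p = 0.457, 0.157 and 0.746). A second Xcr1 probe was detected in 0 of 9 lines and in all 13 spleens, and differed by -4.16.

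**Figure D4:**
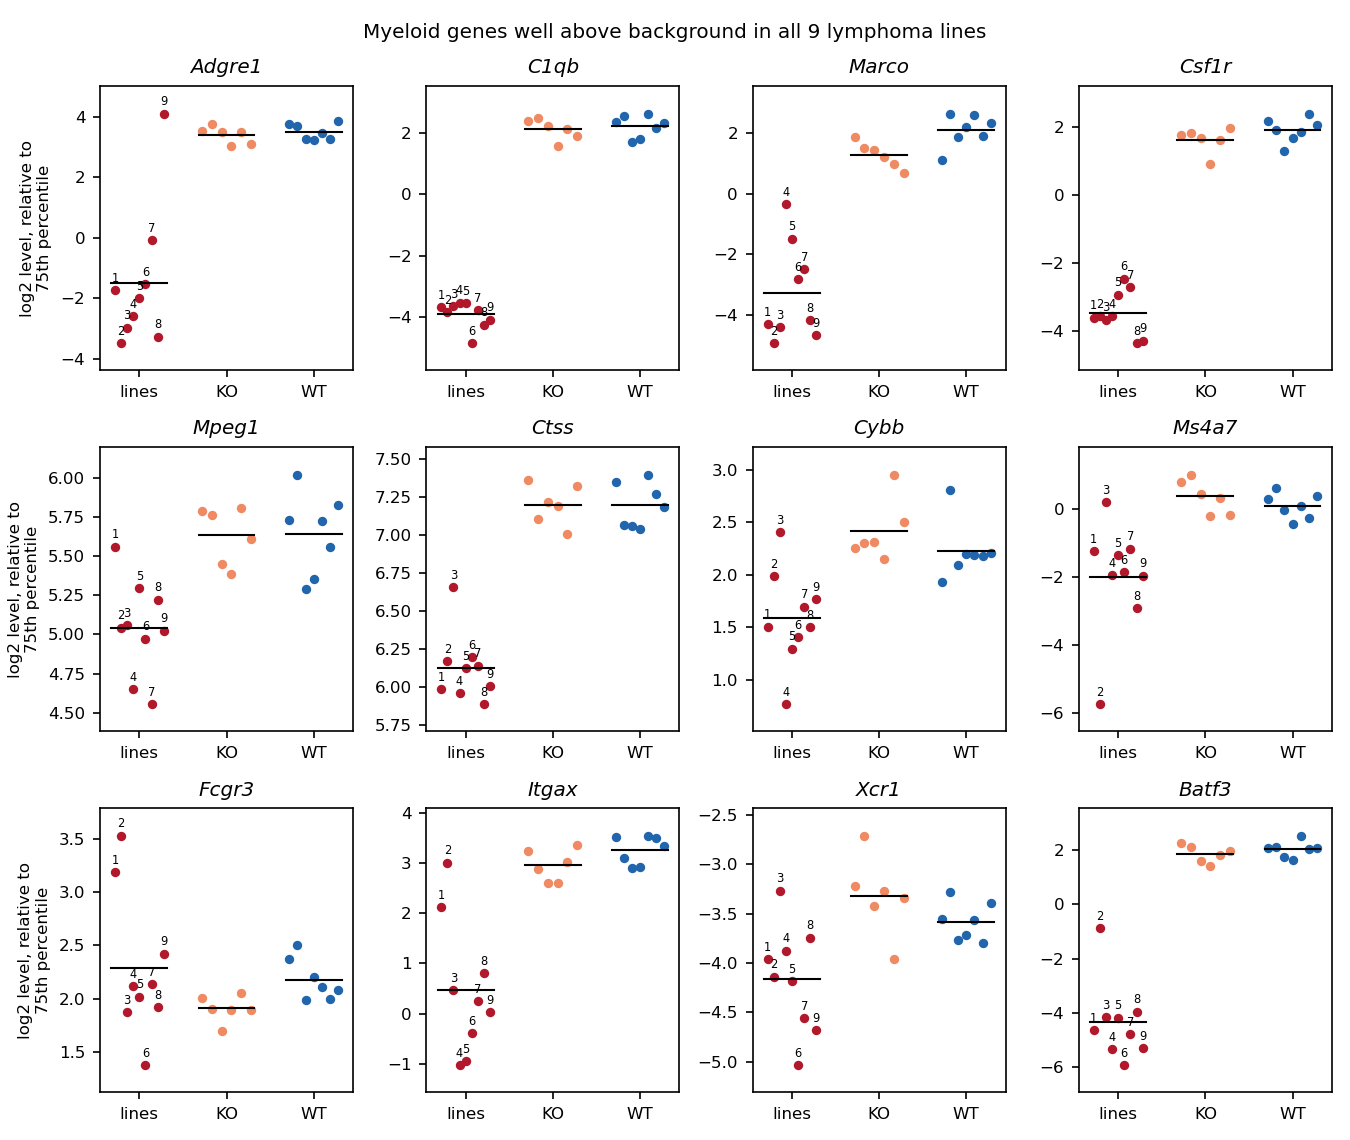
Each panel shows 1 of the 12 genes well above background in all 9 lymphoma lines, as log2 level relative to the 75th percentile of the array, with lines (numbered), KO spleens and WT spleens from left to right and a black bar at each group mean. The vertical axes differ between panels and do not start at 0. Line 9 stands at 4.10 for Adgre1, line 2 at -0.89 for Batf3 and at 3.00 for Itgax, and lines 1 and 2 lie above the spleens for Fcgr3.

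The promoters of 4 members are shown because they pair 2 genes kept in every line (Ctss and Fcgr3) with 2 that were detected in line 3 alone or in no line (C1qc and Fcgr1), although all 4 hold the same motif. The motif is GAGGAAG or its reverse complement CTTCCTC, a form of the core bound by PU.1, the product of Spi1. It was sought on both strands in windows of 300 bases (250 before and 50 after the annotated start) from RefSeq, build GRCm38.p6. Of 32851 windows 13.6% held it. Among the 30 members with a window it was held by 10 (33.3%), namely Axl, Batf3, C1qc, Cd5l, Ctss, Fcgr1, Fcgr3, Fcgr4, Itgam and Marco. The first share counts windows and the second counts genes, which had 32 windows in all, so the 2 shares are not of one unit. Of these 10 genes 4 were detected in all 9 lines, 3 in 5 to 8 lines, 1 in line 3 alone and 2 in none, and a match of letters is a description, not a binding site. The sequences run 5′ to 3′ on the strand of the gene, with the motif in capitals. The windows lie at chr3:95526536-95526835 on the plus strand for Ctss, chr1:171059354-171059653 on the minus strand for Fcgr3, chr4:136892865-136893164 on the minus strand for C1qc and chr3:96293920-96294219 on the minus strand for Fcgr1.
Ctss: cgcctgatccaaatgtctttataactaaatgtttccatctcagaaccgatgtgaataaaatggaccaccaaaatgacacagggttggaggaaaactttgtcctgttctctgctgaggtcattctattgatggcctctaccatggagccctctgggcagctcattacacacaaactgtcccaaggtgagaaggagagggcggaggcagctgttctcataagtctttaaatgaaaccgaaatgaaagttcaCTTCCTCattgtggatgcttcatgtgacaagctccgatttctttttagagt
Fcgr3: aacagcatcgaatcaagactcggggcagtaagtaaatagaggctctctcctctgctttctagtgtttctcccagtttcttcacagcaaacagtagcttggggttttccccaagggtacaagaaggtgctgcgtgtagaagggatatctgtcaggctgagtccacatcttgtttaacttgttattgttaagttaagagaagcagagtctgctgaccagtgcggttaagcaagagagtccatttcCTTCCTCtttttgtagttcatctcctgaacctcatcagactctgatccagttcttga
C1qc: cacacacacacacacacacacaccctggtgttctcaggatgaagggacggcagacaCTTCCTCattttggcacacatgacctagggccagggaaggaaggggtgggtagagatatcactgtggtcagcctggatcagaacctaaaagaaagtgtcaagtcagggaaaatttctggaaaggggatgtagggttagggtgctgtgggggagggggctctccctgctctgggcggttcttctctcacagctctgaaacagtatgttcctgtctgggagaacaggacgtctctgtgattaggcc
Fcgr1: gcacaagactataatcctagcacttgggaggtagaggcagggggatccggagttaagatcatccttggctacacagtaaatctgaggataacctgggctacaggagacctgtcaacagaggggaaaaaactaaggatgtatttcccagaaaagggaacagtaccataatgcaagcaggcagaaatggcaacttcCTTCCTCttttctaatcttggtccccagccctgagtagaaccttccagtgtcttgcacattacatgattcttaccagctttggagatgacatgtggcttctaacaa

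The transcription factors and partners of these pathways were mostly low in the lines as well. Of the 104 tested partner genes 79 were called lower by limma and 11 higher than in KO spleens, and 78 lower and 12 higher than in WT spleens. Over all tested genes 28.9% were called lower and 41.5% higher than in KO spleens, and 30.9% and 40.4% against WT spleens. All 13 myeloid transcription factors were lower than in KO spleens and 12 of 13 lower than in WT spleens, the exception being Irf4 (-0.04, adjusted p = 0.863). Spi1, which B cells also use, fell little (-0.84 ± 0.13) and was -2.50 to -1.99 in the lines and -1.98 to -1.14 in KO spleens. Klf4 fell by 6.41 on the log2 scale. Irf8, shared by dendritic cells and B cells, was -0.43 to 3.48 in the lines and 5.57 to 6.03 in KO spleens.

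Receptors and signalling chains fell with them. Fcer1g, the gamma chain that carries the signal of Fcgr1, Fcgr3 and Fcgr4, was -3.73 to -2.43 in the lines and 3.68 to 4.52 in KO spleens (-7.46 ± 0.22), while Fcgr3 was not called lower. Tyrobp, an adaptor of myeloid receptors, fell by 3.87 on the log2 scale, and Trem2 was detected in no line (at least 23.4-fold lower). Of the monocyte list 10 of 11 were lower, with F13a1 (at least 306-fold) and Ccl2 (at least 104-fold) detected in no line. Of the dendritic cell list 13 of 17 were lower, among them Dpp4 (at least 190-fold), and Tcf4, which B cells also use, was higher (2.50 ± 0.19). All 10 complement genes were called lower. For C3ar1, Vsig4 and C5ar1, detected in 1, 2 and 1 lines, the groups overlapped, with bounds of 0.99-fold, 1.2-fold and 1.745-fold. The bound of C3ar1 thus shows no fall, and the highest line for Vsig4 (-2.56) lay above the highest KO spleen (-4.58).

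A few partners were higher in the lines. In the clearance list 4 of 11 were higher and 7 lower. Tyro3, the remaining receptor of the family of Mertk and Axl, was -3.90 to -1.81 in the lines and -5.71 to -4.39 in KO spleens, without overlap (2.09 ± 0.33). Mfge8, a bridging protein between dying cells and phagocytes, was higher by 0.94 ± 0.23 and Scarb1 by 0.81 ± 0.20. In the iron list the haem transporter Slc48a1 was higher by 0.94 ± 0.15 and without overlap, at 2.63 to 3.30 in the lines and 1.56 to 2.35 in KO spleens, while the iron carrier Trf fell by 6.73 on the log2 scale. The receptor chain Csf2rb was higher by 1.22 ± 0.21, and Csf3r was detected in no line (at least 107.3-fold lower). Among oxidase and lysosome genes 8 of 12 were lower and 0 higher than in KO spleens, and Ctsd fell the most, by 1.36.

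Markers of other spleen cells were low in the lines in the same way. All 11 neutrophil, all 9 erythroid and all 8 NK cell markers were called lower than in KO spleens, as were 6 of 8 megakaryocyte and 7 of 11 stromal and endothelial markers, of which 1 was higher. Of 9 T cell markers 6 were lower and 3 higher, and of 10 B cell markers 3 were lower and 3 higher.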

How the data were processed

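Total RNA of 22 mouse samples was measured with Cy3 on 23 one-colour Agilent arrays. The deposited scanner files hold a processed signal intensity per spot, background-subtracted by Agilent Feature Extraction (version 10.7.1.1 per the file headers), together with median spot and background intensities and a flag for spots well above background. The deposited value table holds log2 values of the same arrays; differences between arrays in it matched the scanner files, and its values are centred per probe.

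Control spots and outlier-flagged spots were left out, spots of a probe were averaged, and log2 processed signal minus the log2 75th percentile of the array was used. The 2 arrays of line 8 were averaged. Genes came from RefSeq accessions of the probes, the brightest probe stood for a gene, and 13743 genes well above background in at least 6 of 22 samples were tested with limma 3.58.1 in R 4.3.3, with Benjamini-Hochberg adjustment over all of them at 0.05. KO and WT spleens were fitted alone with a term for sex, and lines against spleens in a fit of all 3 groups. The fits were tested on simulated data with 200 changed genes and the spread pooled over all 3 groups. For changes of 0.5, 1 and 2 log2 units the genotype fit recovered 0%, 44.5% and 79.5% of them. The fit of lines against KO spleens recovered 15%, 67% and 92%. In size, the members' median estimate between genotypes, -0.23, lay below the smallest of these changes. Because the genotype fit uses spleens alone, its recovery at their own spread was not determined.

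Alternatives changed the scaling, background correction (normexp with offset 50, on median in place of the planned mean signals, which the files used here do not hold), dim-probe filter, probe choice, value source, slide, sex term and samples. The members and lists were chosen with earlier results of these data known. All members were accounted for. Values were given for the member with the largest genotype difference of each subset, those detected in all lines, up to 6 others with the widest range over lines, and the highest bounds of each subset. Of the partner lists, up to 3 called genes per direction with the largest change were named, and others named beside them were chosen after their values were seen. Array number limits the precision. A few genes of the partner and marker lists are counted but not reported here by name.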

Additional observations from a re-analysis of the deposited data

Results flagged for a closer look

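In 12 of 101 groups of samples examined, 1 sample lay apart from the others of its group by Dixon's criterion, which chance meets in about 1 of 20 groups. Of these, 4 concern line 3: Treml4 at -5.25 (others -8.92 to -7.10), C1qc at -5.06 (others -8.94 to -7.34), Tgfbi at -4.63 (others -8.46 to -6.73) and Ctss at 6.66 (others 5.89 to 6.20). The other lines were not well above background for Treml4, C1qc and Tgfbi. In line 2, Fcgr4 was at 1.32 (others -4.85 to -3.06) and Batf3 at -0.89 (others -5.93 to -3.96). Adgre1 was at 4.10 in line 9 (others -3.48 to -0.09) and Flt3 at -3.94 in line 7 (others -6.32 to -5.33).

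Among the spleens, 3 of the values belong to WT spleen 2, which also had the highest sum of neutrophil markers of its group. They were Cybb at 2.81 (others 1.93 to 2.21), Lyz2 at 3.86 (others 1.98 to 2.61) and Itgam at 0.28 (others -1.51 to -0.76). Csf1r was at 0.89 in KO spleen 4 (others 1.62 to 1.97).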

How the results depend on the processing

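Between genotypes the number of members called lower was 0 as reported, 1 with median centring, 1 with slide as a term and 2 without a sex term, and 0 to 1 when single samples were left out, the 1 being Timd4 without KO spleen 5. Over all genes the calls (higher and lower) were 228 and 297 as reported, 179 and 177 with median centring, 146 and 108 with slide as a term, 163 and 176 in females alone, 738 and 693 without a sex term, and 2 and 1 with normexp, where no member was called. In the lines, 33 to 36 members were called lower in each comparison over the settings. The number called higher was 1 with median centring against each spleen group, and 0 to 1 with single samples left out against KO spleens (Fcgr3). Median centring also changed the split over all genes against KO spleens: 8691 were higher and 2509 lower, with 5710 and 3971 as reported. It reversed Mpeg1 (0.066 against KO and 0.043 against WT spleens), Cybb (0.008 against WT spleens) and Xcr1 (0.068 against WT spleens), and these values did not pass. Xcr1 against WT spleens also lost its call with quantile normalisation (-0.08), normexp (-0.68), slide as a term (-0.44) and without the slide that holds lines alone (-0.49), and Mpeg1 against WT spleens with normexp (-0.45). The cause was not tested. By level in place of the software's flag, 7 members gained 1 line each. Levels near background limit the size of the falls. No paired analysis was possible because the labels carry no replicate numbers that samples of different groups share. The 5 slides that hold all 3 groups served as a block instead, in the fit with slide as a term.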
